A study of Tupaia belangeri with 6 samples.

Results

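The subject of this section is a set of 8 intergenic transcripts of the tree shrew (TS, Tupaia belangeri) hippocampus: LINC-MRPL42-8, LINC-MRPL42-4, LINC-ID4-15, LINC-BNIP2-1, LINC-UBE2E1-7, LINC-SLITRK3-3, LINC-SLC25A36-20 and LINC-MAPRE3-1. They are 8 of the 83605 features of the annotation used by the study, 31776 of which carry a LINC name. The members were picked because their levels differed between aged TSs with Alzheimer's-like pathology (ALP) and control TSs in these same libraries. The difference between the groups is therefore given below as a description: fold changes and standard errors are printed for the members, and no p or call is read from them. Tests are given for the levels across cell classes within libraries, for the genes whose symbols the names carry, and for the other features with the same name stem. The rule did not use these measures, but the class levels pool the libraries of both groups and can carry the group difference. The members were also chosen with earlier results of these libraries known.

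Long intergenic non-coding RNAs are transcribed between protein-coding genes. Many are spliced and polyadenylated like messenger RNA, stay in the nucleus, and are made in fewer cell types than most messenger RNAs. Nuclei are therefore a rich source of them. In an annotation built from assembled transcripts, such a name can also cover an unannotated end or intron of a gene. Each name here joins LINC with a gene symbol and a running number. Position, strand and distance to that gene were not analysed here, so neither coordinates nor sequences are given. The 7 name genes have diverse roles. MRPL42 encodes a mitochondrial ribosomal protein, ID4 an inhibitor of basic helix-loop-helix transcription factors found in astrocytes and neural stem cells, and BNIP2 a scaffold protein of cell signalling. UBE2E1 encodes a ubiquitin-conjugating enzyme, SLITRK3 a postsynaptic adhesion protein of inhibitory synapses, SLC25A36 a mitochondrial carrier of pyrimidine nucleotides, and MAPRE3 a protein that binds growing microtubule ends.

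Single-nucleus libraries (10x Genomics 3′ chemistry) were made from the hippocampus of 3 control and 3 ALP TSs. Both groups were naturally aged animals without transgene or drug, the controls being age-matched, and the ALP animals were those that performed poorly in a pipeline maze. Neither age nor sex was in the labels of a library. The 3 libraries of a group were treated as replicates, so the spread given is that between libraries.

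The libraries held 3011 to 8785 barcodes and 19182981 to 35898940 UMIs (unique molecular identifiers, each counting 1 captured RNA molecule). The filters of the study (more than 200 and fewer than 2500 genes, under 5% mitochondrial UMIs) kept 28233 nuclei, with a median of 1502.5 to 2187.5 UMIs per library. Control 2 kept 1614 nuclei, fewer than any other library. Of kept nuclei, 1.49 to 5.03% per library were marked as doublets and left in, and 0.669 to 1.49% of kept barcodes also occurred in another library. The upper limit on genes removed the deepest nuclei, and with them 45.7 to 78.9% of all UMIs of a library. Y-linked genes summed to 65.5, 82.9 and 79.8 CPM (counts per 1000000 UMIs) in Control 1, Control 2 and ALP 2, and to 0.80 CPM or less in the other 3 libraries. Nuclei were clustered without the members, their name genes and the same-name features. They were named by fixed markers as 8500 oligodendrocyte-like (Oligo), 3238 astrocyte-like (Astro), 2745 pyramidal neuron-like (Pyra), 2718 oligodendrocyte precursor-like (OPC), 2542 granule neuron-like (Gran), 2445 interneuron-like (InN), 1615 microglia-like (Micro), 496 endothelial-like (Endo) and 172 ependymal-like nuclei, while 3762 nuclei stayed unnamed. These names were rebuilt here and can differ from those of the study.

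Summed over all kept nuclei, 4 members were higher and 4 were lower in ALP. LINC-MRPL42-8, LINC-MRPL42-4, LINC-ID4-15 and LINC-BNIP2-1 were higher in every ALP library than in any control library, and the other 4 were lower in every ALP library. LINC-ID4-15 depended on the upper limit on genes: without it the libraries had 4.65, 11.09 and 9.39 CPM in controls and 8.80, 14.7 and 12.98 CPM in ALP, and the groups overlapped, while those of the other 7 members did not. In Astro, clustered anew without the limit, its groups did not overlap (26.1, 26.2 and 44.2 against 155, 177 and 167 CPM). In every other class they did. Groups that do not overlap were also found for 27.2% of all 22749 features tested in all nuclei, and since the members were picked on this difference, nothing is read from the count of 8. In a sum over all nuclei, fewer nuclei of a class and less RNA per nucleus cannot be told apart. The members covered a wide range of levels. LINC-MRPL42-8 was the feature with the second-highest level of all, at a mean of 5824 CPM, LINC-SLITRK3-3 had 152 CPM, LINC-MAPRE3-1 36.0 CPM, and the other 5 had 2.64 to 15.4 CPM. Levels of different features are not corrected for length, which is not known here. The most abundant feature, LINC-FRMD8-1, had 130237, 224753 and 194884 CPM in controls and 257580, 210418 and 273279 CPM in ALP, and so moved the totals behind every CPM. With LINC-FRMD8-1 left out of the totals, the groups of all 8 members still did not overlap.

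**Figure D1:**
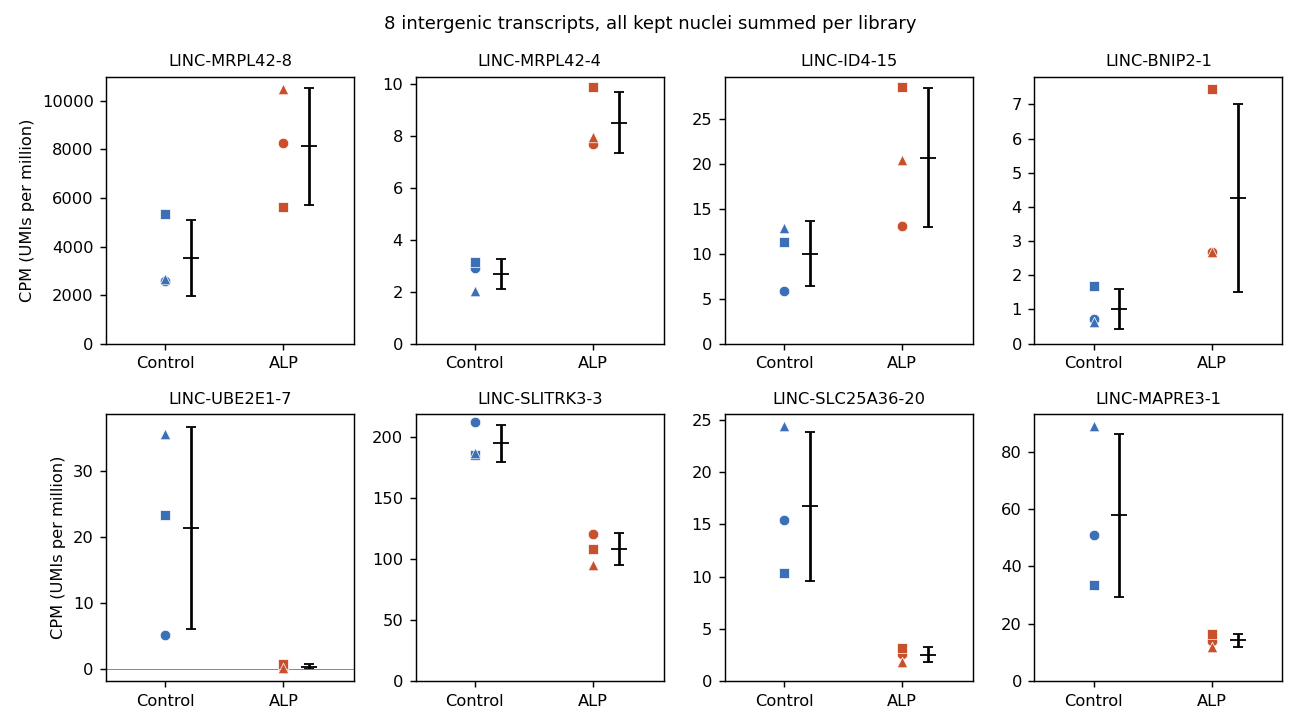
CPM of the 8 transcripts over all kept nuclei. Each point is 1 library (blue control, red ALP; circle, square and triangle for replicates 1, 2 and 3) and the black bar is the mean ± SD (n = 3). In the upper row every ALP point lies above the control points and in the lower row every ALP point lies below them, with the narrowest gap for LINC-ID4-15 (12.9 against 13.1 CPM).

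Fits per class with edgeR gave 36 pairs of a member and a class with enough counts, 17 with a log2 fold change above 0 and 19 below. Rare members can pass the count filter through their higher group alone. The fitted pairs thus lean to classes with a group difference. The share of all features called between ALP and control (adjusted p under 0.05 over all features of the class and an absolute log2 fold change over 0.25) was 0.217% in Astro, 1.75% in Gran, 0.067% in InN, 0.385% in Micro, 1.59% in OPC and 4.99% in Oligo, and 0% in Pyra, Endo, Ependymal and all nuclei together. In all nuclei, 5323 features had an unadjusted p under 0.05. The LINC features were called in 23 of 510 tests in Gran, 53 of 687 in Oligo and 14 of 388 in OPC. The counts were 2 of 490 in Astro, 3 of 176 in Micro, 1 of 682 in InN and 0 of 996 in Pyra. These counts include the members, so they are not independent of the choice of the members. For the members themselves this contrast is the one that picked them. On the CPM scale of the fits (TMM), the groups did not overlap in 10 of the 36 pairs with ALP above and in 16 with ALP below. On the CPM of all UMIs printed here the counts were 9 and 17, since LINC-MRPL42-8 in Pyra overlapped and LINC-SLITRK3-3 in OPC did not. Over all features tested, the share without overlap on the scale of the fits was 22.3% in Astro, 9.71% in Endo, 13.2% in Ependymal, 21.6% in Gran, 24.5% in InN, 17.3% in Micro, 18.7% in OPC, 23.4% in Oligo and 24.1% in Pyra.

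**Figure D2:**
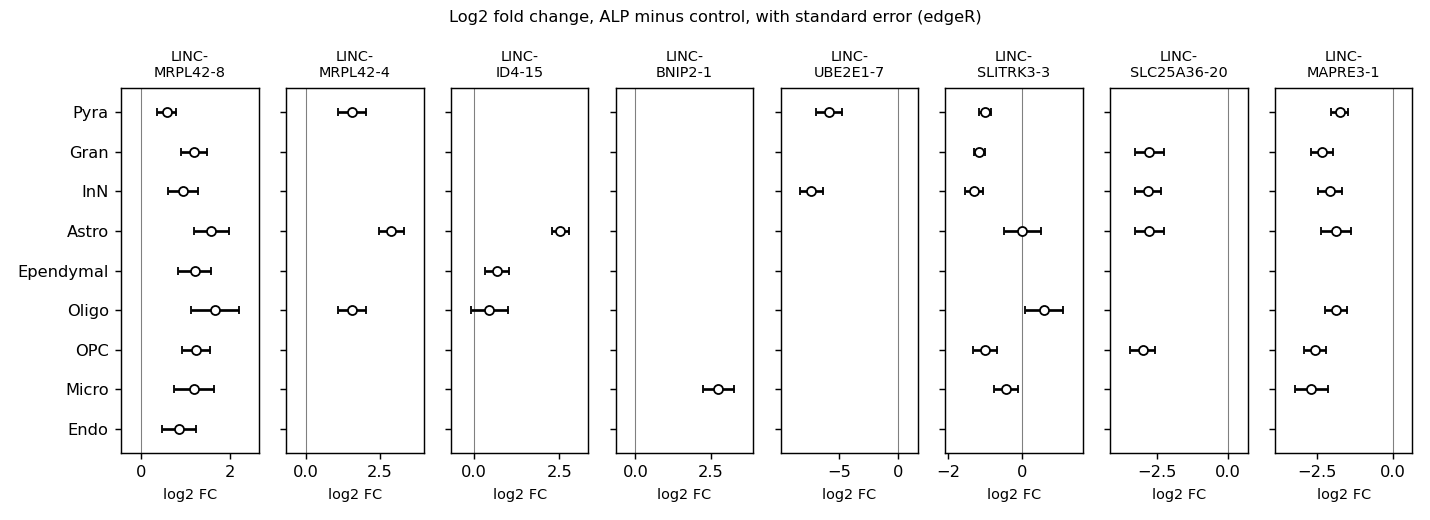
Log2 fold change (ALP minus control) with its standard error for each member (columns) and class (rows) that could be fitted. LINC-MAPRE3-1 was lower in all 7 classes shown for it, and LINC-SLITRK3-3 had values near or above 0 in Astro and Oligo.

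LINC-MRPL42-8 was detected in most nuclei of every class. Of all kept nuclei, 97.8 to 99.9% per library held at least 1 of its UMIs, and the lowest shares in a class were 84.4% of Pyra and 93.8% of Gran nuclei, both in Control 2. Over the 6 libraries its mean level was highest in Oligo (14250 CPM, SD 10053, n = 6) and lowest in Pyra (1940 CPM, SD 333). In the controls the means were close, at 7080 CPM in Oligo, 6388 in Micro and 6386 in Endo. Endo lay above Oligo in Control 1 (5306 against 3858 CPM) and Control 3 (4806 against 3316 CPM). With library as a block and both groups pooled, Oligo exceeded the mean of the other classes by a log2 fold change of 1.5 (SE 0.14). It passed the test (edgeR adjusted p under 0.05 and a log2 fold change over 1), the only one of its 9 classes called higher. The share of all features called higher in Oligo was 14.5%. Micro (10415 CPM), Endo (9224 CPM), Astro (8201 CPM) and Ependymal (7080 CPM) followed, then OPC (4629 CPM), Gran (3872 CPM) and InN (2284 CPM). None of the steps between neighbours in this order passed a two-sided exact sign-flip permutation test over the 6 libraries, in which the smallest adjusted p of 64 such steps for the 8 members was 0.20. With 6 libraries the p of this test cannot fall below 0.031, so a step could pass only if most of the 64 steps reached it. The test could therefore not decide the order.

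Oligo nuclei also showed the widest spread between libraries. LINC-MRPL42-8 had 3858, 14065 and 3316 CPM in Control 1, 2 and 3 and 26052, 12344 and 25862 CPM in ALP 1, 2 and 3. Control 2 thus lay above ALP 2, and the groups overlapped. The same 2 libraries were also close in Micro (11801 CPM in Control 2 and 9094 CPM in ALP 2), Gran (3661 and 3563 CPM) and Astro (7745 and 8045 CPM). In Pyra all 6 libraries lay between 1453 and 2341 CPM. There LINC-FRMD8-1 took 14.1, 18.9 and 15.4% of UMIs in controls and 30.4, 24.5 and 35.1% in ALP. This share enters the Pyra CPM of every member, also of those lower in ALP. Pyra levels with LINC-FRMD8-1 left out of the totals were not computed. Without the gene limit Pyra, then made up of other nuclei, had 625, 1156 and 548 against 1291, 1332 and 1534 CPM, and the groups did not overlap. The ratio of the Oligo to the Pyra level in the same library was 2.65, 6.97 and 1.92 in the controls and 14.1, 5.49 and 11.05 in ALP. Fitted log2 fold changes ran from 0.58 in Pyra to 1.67 in Oligo (SE 0.54), all 9 above 0. Without Control 2 the value in Oligo was 2.71. Of the 3 Oligo clusters with the most LINC-MRPL42-8 UMIs, 2 are given here, and in both of them Control 2 and ALP 2 were close. Picking clusters by UMIs of a member chosen as higher in ALP leans to clusters rich in ALP nuclei. Oligo cluster 1, with 1177 nuclei of Control 1 and 492 of Control 3, is not shown. Cluster 6, which held 45, 21 and 37 control nuclei and 421, 278 and 662 ALP nuclei, had 4452, 13364 and 3876 CPM against 27053, 13426 and 27864 CPM. Cluster 7, with nuclei of all libraries, had 4223, 13069 and 3087 CPM against 24224, 12624 and 23840 CPM. In the median Oligo nucleus the transcript took 0.36, 1.27 and 0.32% of UMIs in the controls and 2.46, 1.15 and 2.45% in ALP.

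**Figure D3:**
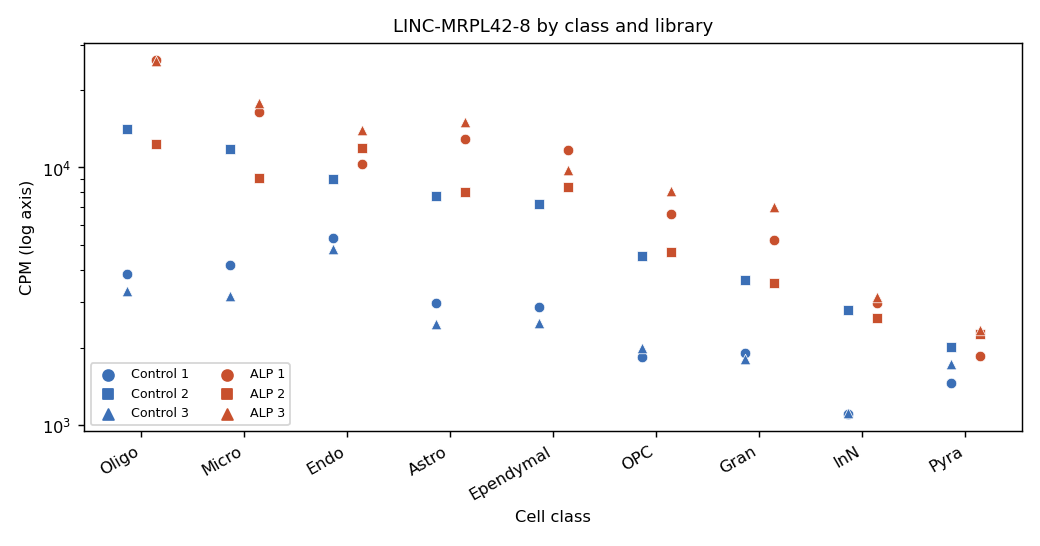
LINC-MRPL42-8 in CPM (log axis) in the 9 classes, ordered by mean level, with 1 point per library. The control point on the level of the ALP points in most classes is Control 2, and the spread between libraries narrows from Oligo on the left to Pyra (1453 to 2341 CPM) on the right.

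LINC-MRPL42-4 carried the same stem at a far lower level, a mean of 5.61 CPM. In all nuclei it had 45, 13 and 23 UMIs for the 3 controls, against 72, 118 and 83 UMIs in ALP. In Astro it had 4, 1 and 5 UMIs in the controls and 9, 28 and 18 in ALP. These were 3.24, 1.34 and 3.11 CPM against 17.9, 19.98 and 18.7 CPM (log2 fold change 2.88, SE 0.43). The groups did not overlap, but counts this low do not show how much the libraries of a group differ. In Oligo the fitted value was smaller, 1.55 (SE 0.48), and Control 2 with 14.15 CPM, from only 4 UMIs, lay above all ALP libraries (12.1 to 12.8 CPM). Across classes, with both groups pooled, it was called higher in Astro (log2 fold change 1.72, SE 0.36) and Oligo (1.49, SE 0.35). In the controls alone Astro was not a leading class, with a mean of 2.56 CPM against 7.10 in Oligo and 5.07 in Micro. In ALP the means were 18.9, 12.4 and 10.2 CPM. The Astro call thus rests on the libraries in which the member was picked as higher, and is not read as a class pattern. Astro has a background of 16% of features called. Only 0.25 to 1.10% of nuclei of the classes in which it was seen held a UMI once nuclei were thinned to 1000 UMIs, and none of 172 Ependymal nuclei held one.

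LINC-MRPL42-2, another feature of the stem, was no member and was tested. It was called in Oligo, with 7, 0 and 8 UMIs in controls against 15, 41 and 24 in ALP (log2 fold change 2.63, SE 0.51, edgeR adjusted p = 0.019). In Astro it had 4, 2 and 16 UMIs against 14, 52 and 18 (log2 fold change 2.38, edgeR adjusted p = 0.065), and in Pyra 2.10 (edgeR adjusted p = 0.093). Neither was called. MRPL42 itself had 36 UMIs in all nuclei, too few for a fit in any class.

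LINC-ID4-15 had its highest levels in Ependymal and Astro nuclei. Of its 959 UMIs, 61.1% lay in Astro and 10.6% in the 172 Ependymal nuclei. The Astro share was lower in controls (29, 18 and 69 of 91, 47 and 145 UMIs) than in ALP (78, 236 and 156 of 122, 341 and 213). Pyra had 2.00, 18.2 and 21.2 CPM in the controls, below Astro in each (23.5, 24.2 and 43.0 CPM). Without the upper limit on genes, unnamed nuclei held 29, 153 and 178 control UMIs and Astro 29, 19 and 66. The level was 307.2 CPM in Ependymal (SD 92.05, n = 6), 96.0 CPM in Astro, and 1.52 to 8.45 CPM in the other 7 classes. Ependymal exceeded the other classes by a log2 fold change of 5.17 (SE 0.40) and Astro by 3.87 (SE 0.25), and both passed the test, against 9.53% and 16% of all features called. After thinning to 1000 UMIs, 24.2% of Ependymal and 8.61% of Astro nuclei held a UMI (36.05 and 13.6% without thinning), and 0.16 to 0.62% in the other classes. ID4 had the same leading classes: it was called higher in Astro (log2 fold change 4.67, SE 0.11) and Ependymal (3.30, SE 0.28). Over the 54 sums of a class in a library, Pearson's r between LINC-ID4-15 and ID4 was 0.74, a description over sums that share libraries.

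Between the groups the transcript and its name gene gave different values. In Astro, LINC-ID4-15 had 23.5, 24.2 and 43.0 CPM in the controls and 155, 168 and 162 CPM in ALP (log2 fold change 2.53, SE 0.25), so that the highest control was far below the lowest ALP library. ID4 had 323, 269 and 214 UMIs against 131, 272 and 194, and its log2 fold change was -0.06 (SE 0.31, edgeR adjusted p = 0.95). The difference between the 2 features was not tested, since LINC-ID4-15 was chosen for its own. ALP lay above the controls in each Astro cluster, though cluster 23 held only 42, 19 and 22 control nuclei. No limit was computed for the 0 values of that cluster. Cluster 4 had 24.9, 25.9 and 32.0 CPM against 162, 193 and 165 CPM, cluster 12 had 26.2, 25.6 and 61.6 against 140, 124 and 190 CPM, and the GFAP-led cluster 23 had 0, 0 and 50.1 against 160, 118 and 73.9 CPM. In Ependymal nuclei the groups were closer, at 212.5, 224 and 271 CPM against 339, 460 and 337 CPM. In Oligo they overlapped.

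LINC-BNIP2-1 lay mostly in Micro among the kept nuclei. Of its 167 UMIs there, 156 (93.4%) lay in Micro, and Astro, Gran, Endo and Ependymal nuclei held none. Without the upper limit on genes, Micro held 10, 3 and 3 control UMIs and 20, 77 and 20 ALP UMIs. Unnamed nuclei then held 3, 22 and 14 control UMIs and 19, 63 and 17 ALP UMIs. Among 1615 Micro nuclei 8.48% held a UMI at a median depth of 1108 UMIs, and among 2745 Pyra nuclei 0.07% did at a median depth of 4199 UMIs. The Micro level exceeded that of the next class in 6 of 6 libraries (mean difference 5.22 on the log2(CPM + 1) scale, SD 2.08). The two-sided exact sign-flip permutation p was 0.031, the smallest that 6 libraries allow, and 0.20 after adjustment over the 64 steps. A step could pass only if most of the 64 steps reached 0.031, so the adjusted value decides nothing here. In Micro, controls held 11, 6 and 3 UMIs and ALP 25, 86 and 25 UMIs, or 13.8, 61.1 and 7.295 CPM against 83.8, 157 and 67.4 CPM (log2 fold change 2.74, SE 0.51). Control 2, with 45 Micro nuclei, lay just under the lowest ALP library. BNIP2 had 194 UMIs spread over all classes and was fitted only in all nuclei (log2 fold change -0.02, SE 0.34, edgeR adjusted p = 0.98).

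GPNMB encodes a glycoprotein of phagocytic, lysosome-rich microglia. The share of Micro nuclei with a GPNMB UMI was 2.61, 11.1 and 6.098% in the controls and 10.1, 17.6 and 15.9% in ALP. It was therefore asked whether LINC-BNIP2-1 sat in these nuclei. Of the 5 libraries with at least 10 nuclei of each kind, only ALP 2 held more than 3 UMIs of it in the GPNMB-positive nuclei, and there it had 136 CPM in positive and 162 CPM in negative nuclei. The positive nuclei of Control 1, Control 3, ALP 1 and ALP 3 held 0, 0, 2 and 2 UMIs. A difference between the 2 kinds of nuclei was therefore not detectable at this depth, and no test over the libraries is read. The GPNMB-led Micro cluster 25 had 34.2, 42.1 and 38.1 CPM in ALP, and the other Micro cluster (cluster 9) 116, 207 and 89.0 CPM. Cluster 25 held only 35, 48 and 42 ALP nuclei, and its median depth was 3677 UMIs against 1039 in cluster 9. Of its nuclei 9.84% were marked as doublets, and 4 granule markers passed the marker rule in it. The difference between the 2 clusters was not tested. Without the gene limit, a cluster of 1122 nuclei with GPNMB among its leading genes stayed unnamed for its 16.5% marked doublets. The level of LINC-BNIP2-1 in that cluster was not computed.

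LINC-UBE2E1-7 lay mostly in neurons among the kept nuclei. InN held 40.1% and Pyra 36.9% of its 588 UMIs there, and both passed the test of class level (log2 fold change 2.97, SE 0.30, in InN and 3.71, SE 0.29, in Pyra, against 17.8% and 20.6% of all features called). In InN it had 32, 37 and 166 UMIs in controls against 0, 1 and 0 in ALP. In Pyra they were 25, 47 and 137 against 1, 6 and 1. The control libraries differed among themselves, from 10.0 CPM in Control 1 to 153 CPM in Control 3 in Pyra, and every ALP library was at 2.58 CPM or less. Pyra was a different mix of clusters in each library. Cluster 21 gave 27 of 692 Pyra nuclei in Control 1 and 175 of 285 in Control 3. The spread between libraries in Pyra thus also carries this mix. The upper limit on genes left out most of the UMIs of this feature. Without it the nuclei were clustered anew, and Pyra had 93.5, 92.5 and 165 CPM in controls and 0.65, 2.04 and 0.26 CPM in ALP. The controls still differed in InN (32.6, 35.2 and 77.2 CPM) and in all nuclei (23.3, 75.5 and 104.7 CPM). Most of its UMIs then lay in unnamed nuclei, with 214, 1131 and 2735 in controls. Pyra held 337, 159 and 276 control UMIs and InN 172, 182 and 580. Pyra was then made up of other nuclei, so the narrower spread in Pyra cannot be told apart from a change in the class. Glial classes held few UMIs over all libraries (Astro 10, Oligo 18, OPC 22, Micro 4).

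The clusters with most of its UMIs were 21 (24.5%) and 16 (20.9%). Pyra cluster 21 (427 nuclei, led by LINC-RPL31-87, LINC-FBL-3, CNTNAP3liN and B4GALNT3) held 0, 25 and 119 UMIs in the controls and 0, 0 and 0 in ALP. Summed over the 3 libraries the controls had 172 CPM in 240 nuclei, while 0 UMIs in 187 ALP nuclei allow up to 3.16 CPM. Control 1, with 27 nuclei in this cluster, had no UMI either, where 0 allows up to 26.4 CPM. InN cluster 16 (led by CNR1 and ADARB2, genes of interneurons of caudal origin) held 11, 23 and 89 UMIs against 0, 0 and 0. Its summed controls had 95.1 CPM, and 0 UMIs in ALP allow up to 2.17 CPM. Control 3 held most of the control UMIs in both clusters. Without it the summed controls had 104 CPM in cluster 21 and 45.5 CPM in cluster 16. The limits cover counting error in ALP only, and the sums treat nuclei of several animals as 1 sample. Both clusters were chosen by UMIs of a member picked as lower in ALP, so no fold is read.

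Other features of the stem were present in the same ALP nuclei. In cluster 21, LINC-UBE2E1-5 had 0, 24 and 131 UMIs in the controls and 8, 4 and 6 in ALP, LINC-UBE2E1-30 had 0, 12 and 98 against 3, 16 and 5, and LINC-UBE2E1-11 had 0, 36 and 305 against 82, 60 and 82. The nuclei of Control 1 in cluster 21 thus lacked all 4 features. In Pyra cluster 10, LINC-UBE2E1-11 was higher in ALP, with 37.5, 172 and 178 CPM against 549, 311 and 497 CPM, while LINC-UBE2E1-7 had 39.5, 72.1 and 123 CPM against 0.62, 4.18 and 0.57 CPM. Besides LINC-UBE2E1-7, 10 features of the stem could be fitted, in 19 pairs with a class, and none was called. Their log2 fold changes ran from -2.39 to 1.16, with 17 of 19 below 0. For LINC-UBE2E1-5, LINC-UBE2E1-16, LINC-UBE2E1-18 and LINC-UBE2E1-24 in InN the ALP libraries lay below the controls, without a call (edgeR adjusted p = 0.068 to 0.072). Of all features tested in InN, 24.5% did not overlap, and 2354 of 11940 had an unadjusted edgeR p under 0.05. Nothing is therefore read from these features. The closest patterns to that of LINC-UBE2E1-7 over the 54 sums were those of LINC-UBE2E1-5 (r = 0.77) and LINC-UBE2E1-16 (r = 0.72). UBE2E1 itself had no UMI in any kept nucleus.

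**Figure D4:**
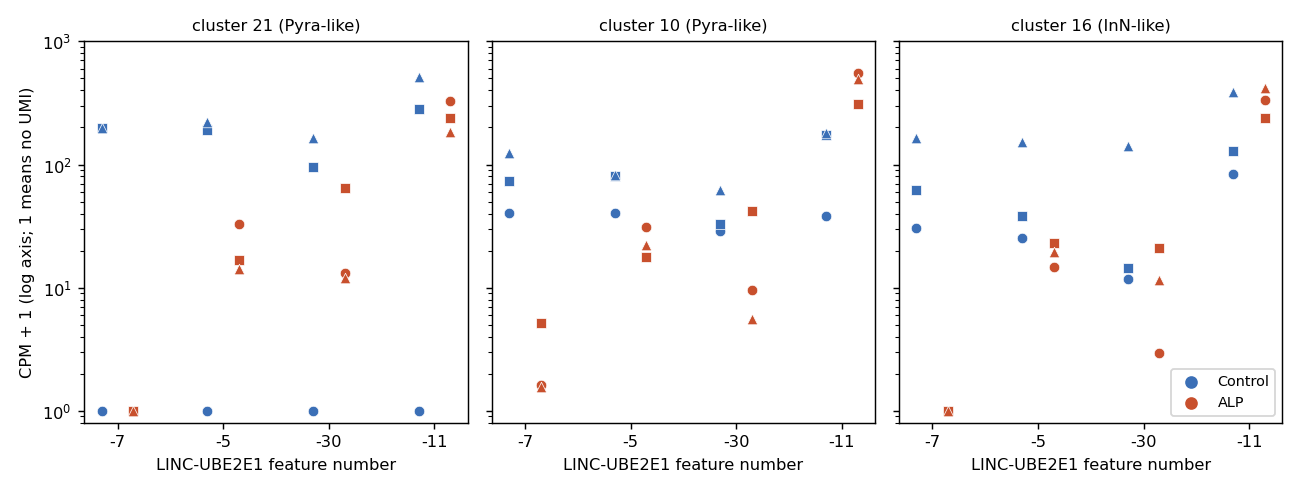
CPM + 1 (log axis, where 1 means no UMI) of LINC-UBE2E1-7, LINC-UBE2E1-5, LINC-UBE2E1-30 and LINC-UBE2E1-11 in 3 neuronal clusters, with 1 point per library (blue control, red ALP). For LINC-UBE2E1-7 every ALP library is at 0 UMIs in clusters 21 and 16, where LINC-UBE2E1-11 has 182 to 417 CPM in the same libraries.

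LINC-SLITRK3-3 was the most abundant neuronal member. Gran had 533 CPM (SD 237, n = 6), Pyra 267 CPM and InN 163 CPM, and all 3 classes passed the test (log2 fold changes 3.49, 2.52 and 1.69, with SE of 0.16 to 0.19), against 17.1, 20.6 and 17.8% of all features called. Gran exceeded Pyra by 1.00 on the log2(CPM + 1) scale in 6 of 6 libraries with an SD of only 0.06, and the adjusted p of this step was 0.20 (exact permutation test). With 6 libraries and 64 steps this test could not decide a single step. Thinned to 1000 UMIs, 36.6% of Gran and 1.33% of Astro nuclei held a UMI. Micro nuclei had 129 CPM, of which cluster 25, where 4 granule markers also passed the marker rule, had 306.5 CPM.

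In Gran it had 733, 718 and 788 CPM in the controls and 334, 352 and 271 CPM in ALP (log2 fold change -1.16, SE 0.15). In Pyra the values were 359, 363 and 408 against 170, 163 and 139 CPM, and in InN 231, 247 and 238 against 80.9, 129 and 51.5 CPM. The control libraries were tight and the groups did not overlap in the 3 neuronal classes. In Astro (-0.00, SE 0.50) and Oligo (0.58, SE 0.51) the groups overlapped. SLITRK3 was called higher in InN (log2 fold change 1.02) and OPC (1.09) and not in Gran (0.59). In Gran it had 74, 5 and 22 UMIs in controls and 11, 18 and 26 in ALP (log2 fold change -0.72, SE 0.33, edgeR adjusted p = 0.28). LINC-SLITRK3-1 was fitted in 7 classes, with log2 fold changes of -0.67 to 0.58 and no call.

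LINC-SLC25A36-20 was shared by Astro and OPC with neurons. It was called higher in Astro (log2 fold change 3.00, SE 0.27), OPC (2.69), InN (1.94), Pyra (1.88) and Gran (1.26), against 14.8% of all features in OPC. Oligo, with 8500 nuclei, held 6 of its 637 UMIs. The level was thus 22.6 CPM in Astro and 19.7 CPM in OPC but 0.375 CPM in Oligo. In OPC, controls held 56, 9 and 61 UMIs and ALP 2, 5 and 2 (log2 fold change -2.99, SE 0.45), and in Gran 28, 2 and 20 against 2, 3 and 2 UMIs (-2.75, SE 0.52). The 22.7 and 9.33 CPM of Control 2, from few UMIs, lay above the ALP libraries (5.78 CPM or less). In Astro, InN, OPC and Gran the 4 fitted values lay within -2.99 and -2.75. These classes passed the count filter through their control libraries, so their like values and lack of overlap depend on the group difference. Pyra held more UMIs than Gran (97 against 57) but failed the filter. The filter asks for a minimum level in as many libraries as a group holds. In Pyra the groups overlapped (18.4, 3.65 and 27.9 against 3.67, 3.44 and 2.60 CPM). The 3.65 CPM of Control 2 in Pyra rests on 2 UMIs.

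Of the other SLC25A36 features, 5 could be fitted, in 22 pairs with a class, and 17 of 22 values were below 0. LINC-SLC25A36-11 was called in Gran, with 32, 4 and 13 UMIs in the controls and 3, 4 and 3 in ALP (log2 fold change -2.20, SE 0.44, edgeR adjusted p = 0.037). In InN it had 39, 21 and 61 UMIs against 15, 10 and 10 (-1.76, edgeR adjusted p = 0.051), and in Astro -1.71 (edgeR adjusted p = 0.067). Neither was called. It was also among the 3 features closest in pattern to LINC-SLC25A36-20 over the 54 sums (r = 0.79). SLC25A36 itself had 22 UMIs.

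LINC-MAPRE3-1 was spread over all classes. It was called higher in none of the 9 classes, with log2 fold changes from -1.06 in Endo to 0.67 in Gran. After thinning, 2.85 to 4.38% of nuclei held a UMI in every class. In Oligo it had 36.7, 35.4 and 84.5 CPM in the controls and 17.8, 14.9 and 10.1 CPM in ALP (log2 fold change -1.87, SE 0.36), in OPC 65.0, 42.9 and 93.2 against 8.03, 9.25 and 16.3 CPM, and in Gran 66.8, 51.3 and 135 against 13.2, 23.2 and 13 CPM. Control 3 was the highest library in all 3 classes. ALP lay below the controls in all 7 classes that could be fitted, and values ran from -2.68 in Micro to -1.76 in Pyra. MAPRE3, with 6074 UMIs and a similarly even spread (82.7 to 115 CPM in the class means), had log2 fold changes of -0.44 to -0.01 in its 7 classes, with no call (edgeR adjusted p = 0.21 or more).

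**Figure D5:**
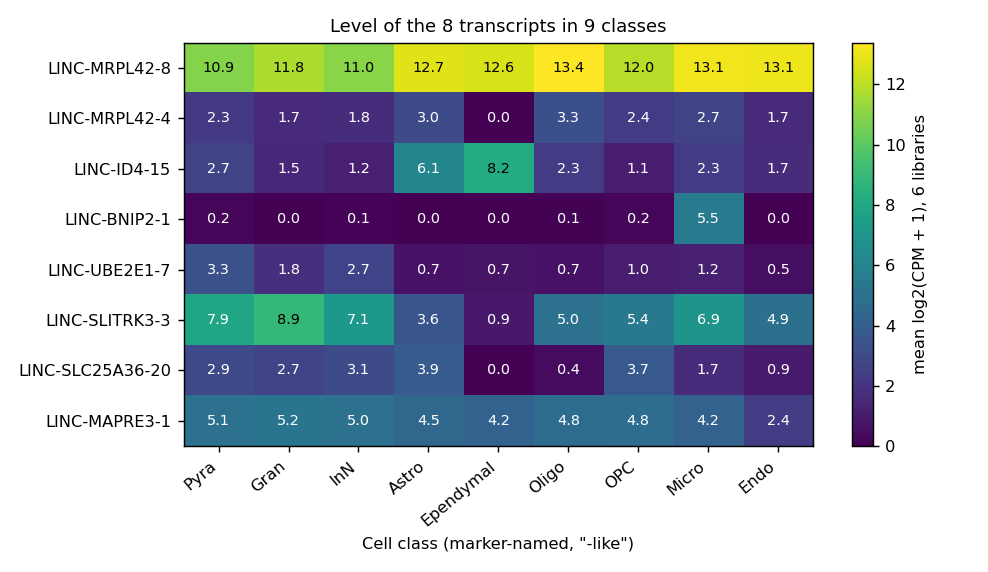
Mean log2(CPM + 1) over the 6 libraries for each member (rows) in each class (columns), with the value printed in each cell. LINC-BNIP2-1 is bright only in Micro (5.5), LINC-ID4-15 in Ependymal (8.2) and Astro (6.1), LINC-SLITRK3-3 in Gran (8.9), and LINC-MAPRE3-1 is even except for Endo (2.4). The Endo value rests on 12, 1 and 9 UMIs in controls and on 0 UMIs in 29, 59 and 43 ALP nuclei.

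Across all members, 15 of 63 pairs of a member and a class passed the test of a higher class level, where 9.53 to 20.6% of all features passed it per class, and LINC-BNIP2-1 had too few UMIs for that fit. The 7 name genes gave no call between ALP and control in the 15 pairs that could be fitted, for ID4, SLITRK3 and MAPRE3, by edgeR or by DESeq2, with 2 pairs at an unadjusted p under 0.05. The 85 other features with the same stems, of which 31 had no UMI, gave 51 pairs for 17 features, and 2 of 51 were called, those of LINC-MRPL42-2 in Oligo and LINC-SLC25A36-11 in Gran. In those classes 4.99% and 1.75% of all features were called.

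The features closest to each member over the 54 sums of a class in a library were searched among 14094 features with a mean of at least 5 CPM. These values of Pearson's r are a description, since sums share libraries and depth. LINC-BNIP2-1 was closest to TNFSF8 (0.94) and CLEC6A (0.93), and its r with BNIP2 was 0.31. TNFSF8 and CLEC6A were among the leading genes of the GPNMB-led Micro cluster 25, but sums of a whole class do not separate its clusters. In ALP the CPM of LINC-BNIP2-1 was lower in cluster 25 than in the other Micro cluster, a difference that was not tested. LINC-ID4-15 was closest to LINC-RNF144B-9 (0.92) and to CRB2 (0.88), which encodes a protein of apical cell polarity. LINC-SLITRK3-3 was closest to CLVS1 (0.89), ZNF804B (0.87) and PCSK2 (0.87), which encodes a neuropeptide-processing protease, and its r with SLITRK3 was 0.40. LINC-MRPL42-8 was closest to DDX3X (0.85), an RNA helicase gene, and SRRM1 (0.84), a splicing factor gene. For LINC-MAPRE3-1 and MAPRE3 r was 0.11.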

How the data were processed

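Nuclei of 6 hippocampi were profiled with 10x Genomics 3′ libraries. The authors deposited raw UMI counts per feature and barcode, made with Cell Ranger (3.1.0 in the study's methods, 6.1.2 in the matrix headers) on an annotation of 83605 features. The genome build and the use of strand or of reads with several hits are not given in the sources used here. Barcodes with 200 to 2500 genes and under 5% mitochondrial UMIs were kept and clustered in scanpy 1.11.5 (2000 variable genes, 30 components, 20 neighbours, leidenalg 0.10.2 at resolution 2), leaving out 100 features (members, name genes, same-name features). Clusters were named by at least 3 markers, each in 3% of nuclei and 1.5-fold over the rest. The rules for shallow and haemoglobin-led clusters were set after the data were seen. Classes of the study without markers in these lists were not rebuilt.

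UMI counts were summed per library and class (at least 10 nuclei) and tested with edgeR 4.0.16 (quasi-likelihood, TMM, filterByExpr with a minimum count of 10, Benjamini-Hochberg over all features of a class) in R 4.3.3. ALP against control was called at adjusted p under 0.05 and an absolute log2 fold change over 0.25, and a class level above the others at adjusted p under 0.05 and over 1. The first call is read for name genes, same-name features and all features, not for the members, which were chosen on this contrast. Exact tests used scipy 1.17.1 under Python 3.11.15. Printed CPM divide by all UMIs of the sum, with a pseudocount of 1 on log scales, and floors are 3 counts. On simulated counts the fits recovered 34.5% (Pyra) to 64.5% (OPC) of 200 changed features. The named features are the 8 members, their name genes, called same-name features and the nearest patterns. The members and lists were chosen with earlier results of these data known. A list of 20 lncRNA symbols had no match in the annotation and gave no result. Alternatives were DESeq2 1.42.0, another scaling, no count filter, a replicate block, each library left out, no gene limit, doublets removed, resolution 1 and a term for Y-linked UMIs.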

Additional observations from a re-analysis of the deposited data

Results flagged for a closer look

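The barcodes outside the filters, nearly all above the limit of 2500 genes, were left out of the comparisons of the report except under the alternative without that limit, and their values on their own were added after seeing the data. LINC-MRPL42-4 was above the controls there too, with 1.97, 3.66 and 3.57 CPM in controls and 5.01, 8.45 and 4.79 CPM in ALP, so that the lowest ALP library, at 4.79 CPM, exceeded the highest control. LINC-BNIP2-1 had 0.12, 1.15 and 0.49 CPM in controls and 1.30, 2.80 and 1.37 CPM in ALP, with the lowest ALP library at 1.30 CPM. These differences were not tested.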

How the results depend on the processing

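Calls of the members between ALP and control restate the choice of the members and are no evidence about them, and they are counted here only to show how the threshold moves. Of the 36 pairs, 10 were past it, and DESeq2 called 19, upper-quartile scaling 13, no limit on genes 15, a term for Y-linked UMIs 15, removal of doublets 11 and resolution 1 called 9, while 31 of 66 pairs were called without a count filter. Leaving out 1 library gave 1 (without ALP 1 or ALP 3) to 25 (without Control 2). For same-name features 2 pairs were called, against 8 with DESeq2, 3 with upper-quartile scaling, 38 of 267 without a count filter and 5 with the Y-linked term, and 0 (without Control 3, ALP 1 or ALP 3) to 16 (without Control 1) with 1 library left out. Over all features and classes 959 of 75090 tests were called, against 4 of 83159 without ALP 3, 8 of 83549 without ALP 1, 30 of 77490 without Control 3 and 2801 of 83478 without Control 2. Name genes gave 0 calls in each of these. Over all features, DESeq2 called 1922 of 75090 tests, upper-quartile scaling 1149 and the Y-linked term 1172. Without the gene limit 1547 of 84963 were called, without a count filter 6377 of 312031 and without Control 1 1617 of 78037. Removal of doublets gave 933 of 72772 and resolution 1 gave 959 of 74260. Class levels above the others gave 15 calls, 12 with DESeq2 to 17 without Control 1. Member pairs past the threshold and class levels called higher in the main fits kept their sign in each alternative in which they could be fitted. The signs of all other pairs were not compared. The cause of the changes in these counts was not tested.

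Libraries share replicate numbers by name only. With the replicate number as a block, 6 member pairs, 0 same-name pairs and 301 tests over all features were called. The deviations of same-numbered libraries correlated by -0.17 to 0.19, not all over 0.1, so the numbers were not taken as pairs. The counts of members without overlap when no gene limit was set were added after seeing the data. So were the summed control levels of LINC-UBE2E1-7 in clusters with 1 control library left out. At these depths the rarest members (LINC-BNIP2-1, LINC-MRPL42-4) could be fitted in 1 and 3 classes.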

Other observations

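The same barcodes gave values for the other members. LINC-UBE2E1-7 was more abundant in them than in the kept nuclei, with 683, 1395 and 3357 UMIs in controls and 4, 27 and 2 UMIs in ALP. LINC-SLITRK3-3 had 329, 394 and 538 CPM against 169, 214 and 131 CPM, LINC-SLC25A36-20 19.4, 13.1 and 45.3 against 4.18, 4.25 and 1.82 CPM, and LINC-MAPRE3-1 57.4, 43.5 and 119 against 17.4, 16.9 and 11.2 CPM, so that these groups did not overlap. LINC-ID4-15 (3.53, 11.03 and 7.80 against 5.11, 5.87 and 4.11 CPM) and LINC-MRPL42-8 (1104, 1992 and 747 against 2325, 1868 and 3009 CPM) overlapped.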
